A study of Rattus norvegicus with 6 samples.

Results

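The genes described here are 9 secreted ADAMTS proteases (Adamts1, Adamts2, Adamts4, Adamts5, Adamts7, Adamts9, Adamts10, Adamts12 and Adamts15) and the secreted serine protease Htra1. They were taken by symbol from a table of raw read counts, in which all 10 were found among 20264 rows. RNA-seq was performed on primary nucleus pulposus cells (NPCs) of wild-type male Sprague-Dawley rats, isolated from the discs of the tail and cultured. Every library was exposed to tert-butyl hydroperoxide (TBHP), an oxidant used to induce senescence in these cells. The TBHP group of 3 libraries received TBHP alone, and the TBHP+FGF21 group of 3 libraries also received recombinant rat FGF21, a secreted metabolic hormone. There was no library without TBHP, so the comparison is of FGF21 under oxidative stress and not of TBHP itself. For replicates 2 and 3 of the TBHP+FGF21 group, the sample labels name FGF22 and FGF23. The treatment protocol and the design text give FGF21 for the whole group, and that grouping was used. The age of the rats and the dose and time of both agents in these libraries are not given in the sources used here. The libraries are labelled as biological replicates, but nothing says whether the cultures came from separate rats, so the p-values measure the spread between these libraries only.

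ADAMTS proteases are zinc metalloproteinases with thrombospondin repeats that cells secrete into the matrix around them. They are made as inactive precursors, and furin-like convertases remove the inhibitory propeptide. In the disc, aggrecan holds water in the nucleus pulposus, and its cleavage by aggrecanases such as ADAMTS4 and ADAMTS5 is a known step in degeneration. HTRA1 is a secreted protease of another class, with a serine in its active site, which cuts fibronectin, aggrecan and other matrix proteins.

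Libraries are named T1, T2 and T3 for the TBHP group and F1, F2 and F3 for the TBHP+FGF21 group, by replicate number. They held between 18277732 and 22426190 counts. A gene with a count of 0 could thus be present at up to between 0.134 and 0.164 CPM (counts scaled to a library of 1e+06), the value of 3 counts, which covers counting error only. Levels are given as CPM scaled by edgeR's TMM method. They were compared between libraries of the same gene but not between genes, because transcript lengths were not used here. F2 stood apart. Across genes, its mean Spearman's rho was 0.990 with the other libraries of its own group and 0.996 with the TBHP libraries. T3 was also slightly nearer to the other group, at 0.994 against 0.993 with its own. Without T3, 1771 genes had an unadjusted p under 0.05 (1019 with all libraries) and 0 of the 10 genes did. F2 had the larger gap, so values without it are given as well. F2 was singled out from these same data. Leaving out the treated library nearest to the TBHP group raised the number of genes past an adjusted p of 0.05 from 1 to 867 (edgeR), so a call made only without F2 is no independent support for that gene. Of the defining markers of notochordal nucleus pulposus cells, Tbxt had 0 counts in every library, Krt18 was at or below 0.168 CPM, Krt8 lay between 2.31 and 4.27 CPM and Cd24 between 0.718 and 2.13 CPM, while Krt19 was not analysed here. Other genes of the nucleus pulposus list were higher, with Acan between 2506 and 4355 CPM and Pax1 between 211 and 385 CPM. Of the defining markers of the annulus fibrosus, Tnmd had 0 counts in every library. Scx lay between 84.7 and 154 CPM and Mkx between 29.3 and 39.0 CPM. The fibroblast collagen gene Col1a1 lay between 27868 and 42463 CPM. The defining markers of macrophages and endothelial cells were near 0. Ptprc, Adgre1, Cdh5 and Kdr had 0 counts, Csf1r reached 0.281 CPM, Vwf 0.654 CPM and Cd68 2.27 CPM, and Pecam1 was not analysed here. Col1a2 was listed at 0.391 to 0.771 CPM beside the high level of Col1a1, so a low value in this table was not read as absence of the transcript.

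No gene of the 10 passed an adjusted p of 0.05 for TBHP+FGF21 against TBHP (quasi-likelihood test of edgeR with Benjamini-Hochberg adjustment over 11426 genes, the source of every p-value below unless another is named), where 0.00875% of all genes tested did. DESeq2, limma-voom and limma on log2(normalized count + 1) also gave 0 of the 10. All 10 had enough counts to be tested. At an unadjusted p under 0.05, 2 of the 10 were lower, Adamts4 and Adamts12, against 4.29% of all genes, and 0 were higher, against 4.63% of all genes. The fitted value was higher for 4 genes and lower for 6, with a median log2 fold change of -0.03 against -0.0052 over all genes tested. Without F2, 2 of the 10 passed the adjusted p, namely Adamts7, which rose, and Adamts12, which fell. In that comparison 7.5% of all genes passed, with 3.78% higher and 3.72% lower. At an unadjusted p under 0.05 it called 2 of the 10 higher and 2 lower, against 11.6% and 12% of all genes. In bulk libraries, fewer cells of a type and less RNA per cell cannot be told apart.

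**Figure D1:**
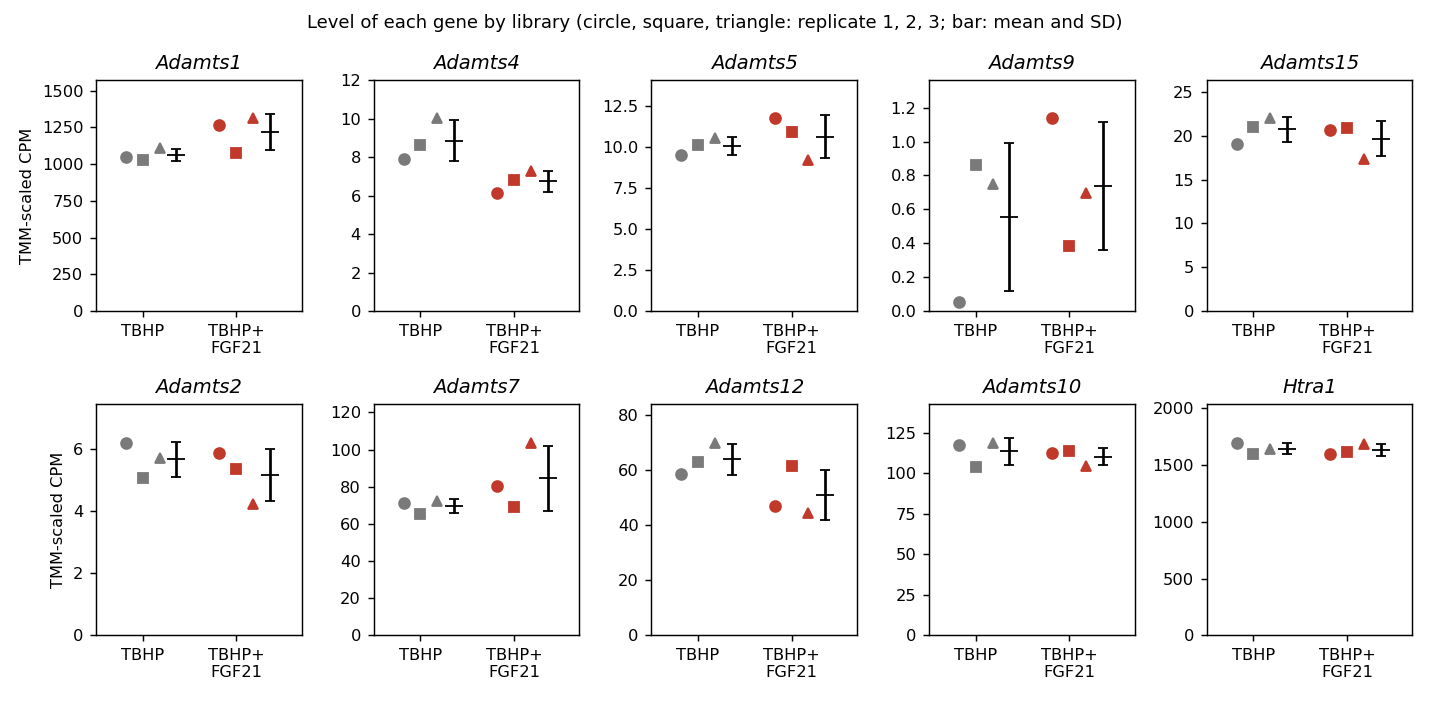
Level of each of the 10 genes in each library as TMM-scaled CPM on a linear axis from 0, with the TBHP group in grey and the TBHP+FGF21 group in red. Circles, squares and triangles are replicates 1, 2 and 3, and the bar beside each group is its mean and SD (n = 3). The groups do not overlap for Adamts4, while for Adamts1, Adamts7 and Adamts12 the square of the TBHP+FGF21 group lies within the range of the TBHP libraries.

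The 4 genes with the smallest p were Adamts4 and Adamts12, fitted lower, and Adamts7 and Adamts1, fitted higher. They were picked by p in these same data, and none passed the adjusted p with all libraries. Their proximal promoters are shown as a description, and a link between sequence and level was not tested. The sequences are RefSeq windows of 300 bases, from 250 bases before to 50 bases after the annotated start, read 5′ to 3′ along the gene. Windows were found for 8 of the 10 genes, and none was used for Adamts5 and Adamts15. Capitals mark matches on either strand to any of 7 motifs, namely the AP-1 site with the letters TGANTCA, the cAMP response element TGACGTCA, the RUNX site TGTGGT, the GC box GGGCGG, the CCAAT box, the TATA box TATAAA and the NF-kB site. None of these motifs contains another. Positions count from the annotated start, with negative values before it, and a match is a run of letters rather than a site shown to be bound.
Adamts4 (GRCr8, chr13:86202761-86203060, plus strand): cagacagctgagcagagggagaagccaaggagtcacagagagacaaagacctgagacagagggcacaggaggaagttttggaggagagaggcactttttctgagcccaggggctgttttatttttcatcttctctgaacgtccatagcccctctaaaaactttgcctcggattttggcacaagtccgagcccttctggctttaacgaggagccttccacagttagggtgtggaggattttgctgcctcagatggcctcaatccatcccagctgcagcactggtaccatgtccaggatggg
Adamts12 (GRCr8, chr2:61759737-61760036, plus strand): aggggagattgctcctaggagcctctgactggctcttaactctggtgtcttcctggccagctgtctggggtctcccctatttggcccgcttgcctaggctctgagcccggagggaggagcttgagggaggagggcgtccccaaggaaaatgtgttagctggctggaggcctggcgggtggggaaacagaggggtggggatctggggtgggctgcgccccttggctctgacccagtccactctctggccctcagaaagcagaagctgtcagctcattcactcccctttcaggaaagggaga
Adamts1 (GRCr8, chr11:38427335-38427634, minus strand): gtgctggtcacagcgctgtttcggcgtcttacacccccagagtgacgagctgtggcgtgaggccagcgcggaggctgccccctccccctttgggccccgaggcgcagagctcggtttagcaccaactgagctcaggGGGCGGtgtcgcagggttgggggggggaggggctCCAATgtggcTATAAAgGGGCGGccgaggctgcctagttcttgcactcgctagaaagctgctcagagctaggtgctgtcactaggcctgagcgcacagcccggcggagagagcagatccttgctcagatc
Adamts7 (GRCr8, chr8:99584279-99584578, plus strand): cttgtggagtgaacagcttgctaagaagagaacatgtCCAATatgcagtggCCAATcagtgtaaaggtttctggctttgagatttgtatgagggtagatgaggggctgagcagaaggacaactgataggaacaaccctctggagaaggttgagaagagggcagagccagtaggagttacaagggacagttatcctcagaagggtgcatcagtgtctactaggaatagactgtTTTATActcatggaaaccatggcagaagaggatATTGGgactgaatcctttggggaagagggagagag
No capitals stand in the windows of Adamts4 and Adamts12. The Adamts1 window held a TATAAA match at -70, a CCAAT match at -80 and 2 GC boxes. The Adamts7 window held 3 CCAAT matches and a TATAAA match at -18. Among the 8 windows, TATAAA was found in 3 (Adamts1, Adamts7 and Adamts10), where 14.3% of the 27457 promoters in the RefSeq set hold it. CCAAT was found in 4 of the 8, against 37.7% of all promoters, and GGGCGG in 4 of the 8, against 34.9%. The RUNX letters were found in Htra1 alone, where 16.9% of all promoters hold them. The AP-1, cAMP response element and NF-kB letters were in none of the 8 windows, and 7.3%, 1.9% and 1.5% of all promoters hold them.

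Among the aggrecanases, Adamts4 (ENSRNOG00000003538) was the only 1 of the 10 genes whose groups did not overlap, where 9.9% of all genes tested did not (4.9% higher and 5% lower). Adamts4 cleaves aggrecan in the stretch between its N-terminal globular domains. The TBHP libraries had 142, 191 and 214 reads, or 7.93, 8.66 and 10.03 CPM in T1, T2 and T3. The TBHP+FGF21 libraries had 130, 142 and 167 reads, or 6.16, 6.80 and 7.28 CPM. Each TBHP+FGF21 library, F2 included, was below the lowest TBHP library. The means were 8.87 ± 1.07 CPM and 6.75 ± 0.562 CPM (SD, n = 3 each). The fitted log2 fold change of Adamts4 was -0.40 (standard error 0.15, 95% interval -0.73 to -0.07), with edgeR p-values of 0.0222 unadjusted and 0.553 adjusted. The exact two-sided permutation test of log2(CPM + 0.1) gave p = 0.1, the smallest that 3 libraries against 3 allow. Without F2 the log2 fold change was -0.39 (edgeR adjusted p = 0.173), nearly the same value. It was nearest to 0, at -0.29, without T3. The counts used here ignore strand. In the counts by strand, Adamts4 had a log2 fold change of -0.36 in one column and -0.44 in the other. The unadjusted p were 0.0620 and 0.0503 by edgeR, so it was not called at 0.05 in either. These columns held only 53.8% and 49.9% of its unstranded reads over the 6 libraries.

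The other aggrecanase known for disc and cartilage, Adamts5 (ENSRNOG00000057794), did not share this pattern. It was at 9.50, 10.1 and 10.5 CPM in the TBHP libraries and at 11.7, 10.9 and 9.20 CPM in the TBHP+FGF21 libraries. The lowest and the highest value were both in the TBHP+FGF21 group, whose range enclosed that of the TBHP group. For Adamts5 the log2 fold change was 0.08 (standard error 0.14, edgeR adjusted p = 0.853), and its 95% interval of -0.23 to 0.38 covers changes in either direction.

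Adamts1 (ENSRNOG00000001607), which cleaves versican and aggrecan, was well covered, with 18724 to 30096 reads per library. In the TBHP libraries it was at 1046, 1030.5 and 1108 CPM. In the TBHP+FGF21 libraries it was at 1267, 1078 and 1312 CPM. F1 and F3 were above every TBHP library, and F2 lay among them. The means were 1062 ± 41.2 CPM and 1219 ± 124 CPM (SD, n = 3 each). The fitted log2 fold change of Adamts1 was 0.20 (standard error 0.10, 95% interval -0.02 to 0.42, edgeR adjusted p = 0.559). Without F2 it was 0.29, with edgeR p-values of 0.0116 unadjusted and 0.0943 adjusted. In GRCr8, Adamts1 and Adamts5 are adjacent protein-coding genes, and the difference between their log2 fold changes was not tested.

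Adamts15 (ENSRNOG00000009892), another versican and aggrecan protease, was at 19.1, 21.0 and 22.0 CPM in the TBHP libraries and at 20.7, 20.9 and 17.4 CPM in the TBHP+FGF21 libraries. F3 was the lowest library, and the other 2 lay within the range of the TBHP group. Adamts15 had a fitted log2 fold change of -0.08 (95% interval -0.34 to 0.18, edgeR adjusted p = 0.826), and its sign turned to 0.01 without F3. Adamts9 (ENSRNOG00000023257), a versicanase, was near the limit of detection, with 1, 19 and 16 reads in the TBHP libraries and 24, 8 and 16 in the TBHP+FGF21 libraries. Its 1 read in T1 was below the 3 counts that a count of 0 allows. The 95% interval of the Adamts9 log2 fold change, from -0.93 to 1.63, was the widest of the 10, and its value changed from 0.35 to -0.12 without T1 and to -0.07 without F1. A difference in Adamts9 was not detectable at this depth. In GRCr8, long non-coding RNA genes overlap Adamts9, Adamts2, Adamts10 and Htra1, and unstranded counts cannot separate them.

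Adamts7 and Adamts12, a closely related pair that bind and degrade cartilage oligomeric matrix protein, were fitted in opposite directions. Adamts7 (ENSRNOG00000028036) was at 71.3, 65.4 and 72.2 CPM in the TBHP libraries. In the TBHP+FGF21 libraries it was at 80.7, 69.1 and 103.8 CPM. F3 was the highest library, F1 was also above the TBHP range, and F2 was within it. The log2 fold change of Adamts7 was 0.28 (standard error 0.13, 95% interval -0.0094 to 0.57, edgeR adjusted p = 0.553). It was 0.41 without F2 (standard error 0.11, edgeR adjusted p = 0.0337) and was 0.11 without F3 (edgeR adjusted p = 0.973).

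Adamts12 (ENSRNOG00000018865) was at 58.7, 63.2 and 70.1 CPM in the TBHP libraries and at 47.0, 61.7 and 44.6 CPM in the TBHP+FGF21 libraries. Here F1 and F3 were below every TBHP library, and F2 was again within the TBHP range. The means were 64.0 ± 5.76 CPM and 51.1 ± 9.23 CPM (SD, n = 3 each). The log2 fold change of Adamts12 was -0.33 (standard error 0.13, 95% interval -0.60 to -0.05), with edgeR p-values of 0.0249 unadjusted and 0.553 adjusted. Without F2 it was -0.47 (standard error 0.11, edgeR adjusted p = 0.0150), the smallest adjusted p among the 10 genes in any of the comparisons made. It was -0.23 without F3 (edgeR adjusted p = 0.973). The gene of the substrate, Comp, lay between 58.0 and 75.6 CPM in the TBHP libraries and between 60.3 and 67.6 CPM in the TBHP+FGF21 libraries, with a log2 fold change of -0.11 (edgeR adjusted p = 0.719).

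**Figure D2:**
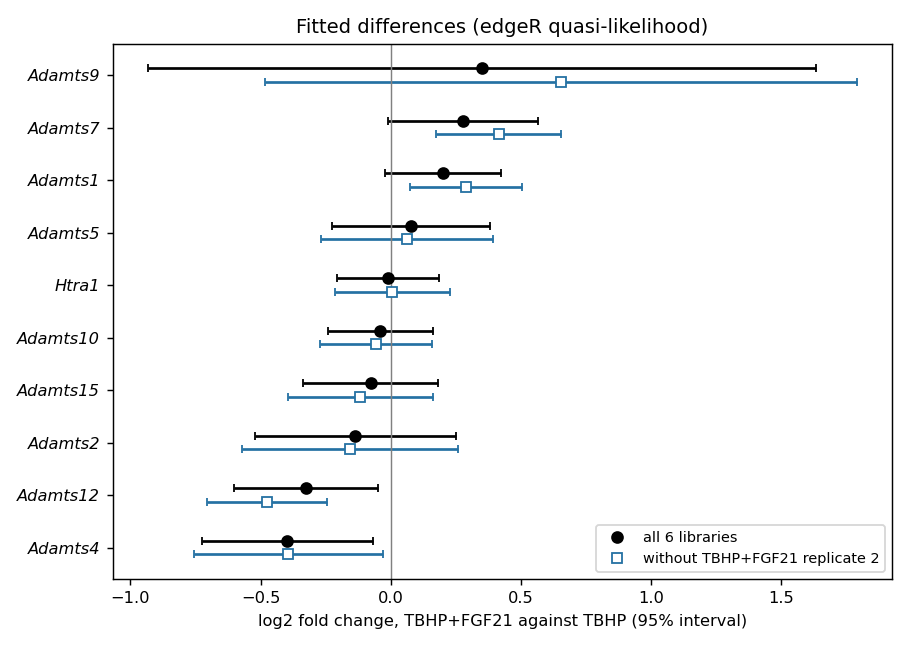
Fitted log2 fold change of each gene for TBHP+FGF21 against TBHP, with its 95% interval from edgeR's quasi-likelihood test. Filled circles are the fit of all 6 libraries and open squares the fit without F2. The values of Adamts7 and Adamts12 move from 0.28 to 0.41 and from -0.33 to -0.47, away from 0, while those of Htra1 and Adamts10 stay near 0.

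F1 and F3 were both outside the TBHP range on the same side for 4 of the 10 genes, namely Adamts1, Adamts4, Adamts7 and Adamts12. For 3 of these 4, F2 was inside that range. Over all genes tested the share with F1 and F3 both outside was 39.8%, a share near that among the 10 genes (20.4% higher and 19.4% lower).

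Adamts2 (ENSRNOG00000061484), which removes the N-terminal propeptides of fibrillar procollagens, was at 6.20, 5.08 and 5.72 CPM in the TBHP libraries and at 5.87, 5.36 and 4.23 CPM in the TBHP+FGF21 libraries. Only F3 was below the TBHP range. For Adamts2 the fitted log2 fold change was -0.14 (95% interval -0.52 to 0.25, edgeR adjusted p = 0.795), and it was 0.02 in one of the counts by strand. Adamts10 (ENSRNOG00000008857), a fibrillin-binding member, was among the steadiest. It lay between 104.1 and 118.9 CPM in the TBHP libraries and between 104.4 and 114.0 CPM in the TBHP+FGF21 libraries, with a log2 fold change of -0.04 (95% interval -0.24 to 0.16, edgeR adjusted p = 0.891).

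Htra1 (ENSRNOG00000020533) varied least of the 10 genes. It had 30417 to 38764 reads per library, and its coefficient of variation over the 6 libraries was 2.75%, against 5.67% for Adamts10, the next lowest, and 58.5% for Adamts9, the highest. Its levels were 1699, 1601 and 1639 CPM in the TBHP libraries and 1595, 1616 and 1689.9 CPM in the TBHP+FGF21 libraries. The ranges of the groups overlapped almost fully. Htra1 had a fitted log2 fold change of -0.01 (standard error 0.09, edgeR adjusted p = 0.971), and the 95% interval of the fold, 0.866 to 1.14, bounds the difference these libraries allow. Htra1 and Adamts1 together held 89.9% to 91.1% of the reads of the 10 genes in each library. The share of Adamts1 was 34.5% to 36.2% in the TBHP libraries and 40.2%, 36.2% and 39.8% in F1, F2 and F3. Since these shares are of reads, they also follow transcript length. Without F2, the log2 fold changes were 0.06 for Adamts5, 0.66 for Adamts9, -0.12 for Adamts15, -0.16 for Adamts2, -0.06 for Adamts10 and 0.0059 for Htra1, with adjusted p between 0.496 and 0.981 by edgeR.

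**Figure D3:**
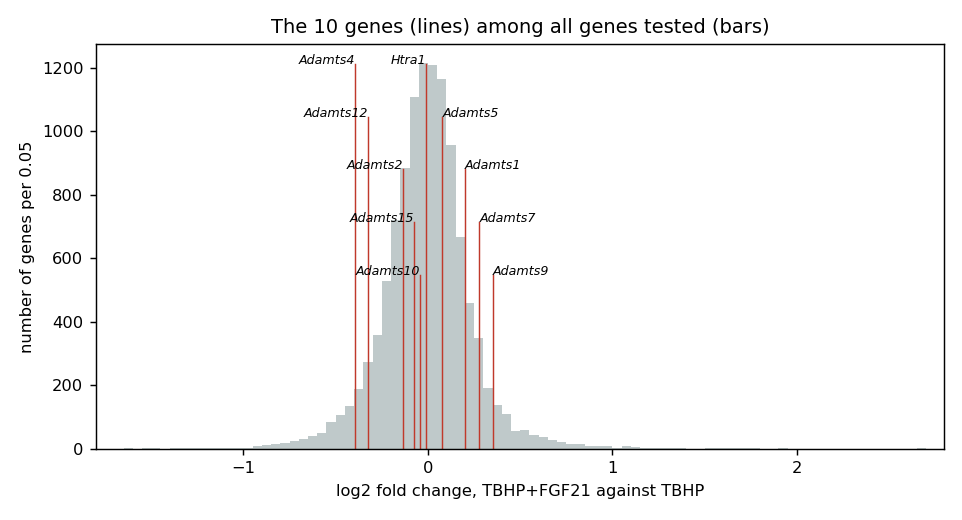
Distribution of the fitted log2 fold changes of the 11426 genes tested (grey bars, number of genes per bin of 0.05), with the 10 genes as red lines whose heights carry no value. The genes lie between -0.40 for Adamts4 and 0.35 for Adamts9, within the body of the distribution.

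Of the 10 other ADAMTS proteases in the list, 8 had at least 1 read and 3 could be tested, and 0 of the 3 had an unadjusted p under 0.05 in either direction, against 8.92% of all genes. Adamts8, a hyalectan protease, lies next to Adamts15 in GRCr8. It was at 91.2, 76.7 and 84.4 CPM in the TBHP libraries and at 93.1, 77.4 and 154.2 CPM in the TBHP+FGF21 libraries. F3 was the highest, and Adamts15 was lowest in that same library. The log2 fold change of Adamts8 was 0.37 (edgeR adjusted p = 0.565). Without F2, Adamts8 rose by 0.57 (edgeR adjusted p = 0.0290). Values near 0 were found for Adamts6, with a log2 fold change of 0.03, and the procollagen protease Adamts14, with one of -0.0045. Adamts3, Adamts13, Adamts17, Adamts19 and Adamts20 were at or below 0.670 CPM in every library, and Adamts16 and Adamts18 had 0 counts.

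ADAMTS-like proteins share the ancillary domains of the family but have no protease domain. Of 7 listed, 6 could be tested, with 0 at an unadjusted p under 0.05, against 8.92% of all genes, and a median log2 fold change of 0.04. Adamtsl1 was at 24.9, 26.6 and 31.9 CPM in the TBHP libraries and at 14.4, 29.9 and 13.8 CPM in the TBHP+FGF21 libraries. F1 and F3 were far below all the others, and F2 was within the TBHP range. Adamtsl1 had a fitted log2 fold change of -0.52 (standard error 0.24, edgeR adjusted p = 0.553), and without F2 it fell by 0.97 (edgeR adjusted p = 0.000415). The log2 fold changes were 0.69 for Adamtsl2, -0.14 for Adamtsl3, 0.13 for Adamtsl4, -0.05 for Adamtsl5 and 0.21 for Papln, and Thsd4 reached 0.521 CPM and was not tested. Of the other HtrA proteases, Htra2, Htra3 and Htra4 had log2 fold changes of -0.10, 0.06 and 0.13, and 0 of the 3 had an unadjusted p under 0.05, against the same 8.92%.

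**Figure D4:**
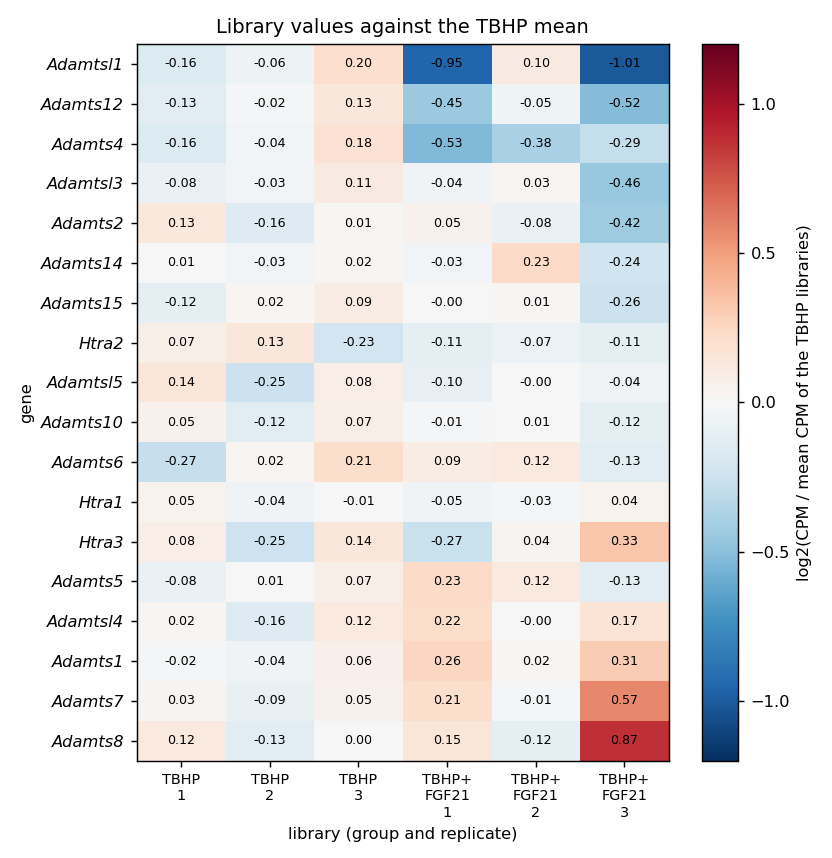
Heat map of log2(CPM / mean CPM of the TBHP libraries) for the 18 tested ADAMTS, ADAMTS-like and HtrA genes with a mean of at least 3 CPM, by library, with the value in each cell. In Adamtsl1 and Adamts12, F1 and F3 are at -0.95 and -1.01, and at -0.45 and -0.52, while F2 is at 0.10 and -0.05.

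A list of 17 genes set down as ADAMTS regulators was read, of which 15 could be tested. It includes convertases, inhibitors, an endocytic receptor, transcription factors and the receptor Il1r1, and it gives no role for Wif1. Of the 15 tested, 12 were fitted higher and 3 lower (5592 and 5834 of all 11426 genes), with a median log2 fold change of 0.08. At an unadjusted p under 0.05, 2 were lower, against 4.29% of all genes, and 0 were higher, against 4.63%, and none passed the adjusted p. Without F2, 3 were higher and 3 lower at an unadjusted p under 0.05, against 11.6% and 12% of all genes. In that fit 1 of the 15 passed the adjusted p, against 7.5% of all genes. With all libraries, the lower genes were Timp3, whose product is a tissue inhibitor of several ADAMTS proteases, and Wif1, a secreted Wnt antagonist. Timp3 was at 24.7, 28.2 and 29.6 CPM in the TBHP libraries and at 20.8, 24.2 and 12.1 CPM in the TBHP+FGF21 libraries. All 3 TBHP+FGF21 libraries were below the TBHP range. For Timp3 the fitted value was -0.54 (standard error 0.20, edgeR adjusted p = 0.553), and without F2 it fell by 0.74 (edgeR adjusted p = 0.0156). Wif1 had a log2 fold change of -0.32 (standard error 0.12, edgeR adjusted p = 0.553), and its groups did not overlap either. The groups also did not overlap for Mmp17 (0.41), Nfkb1 (0.10) and Il1r1 (-0.28), which had an unadjusted p above 0.05 and are named after their values were seen. Over all genes tested, 9.9% had groups that did not overlap. For the convertases, the log2 fold changes were 0.10 for Furin and 0.01 for Pcsk6. They were 0.18 for Lrp1, an endocytic receptor that clears ADAMTS proteases, and 0.06 for Sdc4, a heparan sulfate proteoglycan at the cell surface. The adjusted p of these 4 genes lay between 0.588 and 0.986 by edgeR.

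Of 23 listed substrates of ADAMTS proteases and HTRA1, 19 could be tested, and 10 were fitted higher and 9 lower, with a median log2 fold change of 0.02. At an unadjusted p under 0.05, 2 were higher, against 4.63% of all genes, and 0 were lower, against 4.29%. Without F2, 7 were higher and 3 lower at an unadjusted p under 0.05, against 11.6% and 12% of all genes, and 2 of the 19 passed the adjusted p, against 7.5%. The 3 lower ones were Col1a1, Col5a1 and Fbn1, at -0.30, -0.24 and -0.31. With all libraries, the higher genes were Acan, which encodes aggrecan, and Tgfbi, a matrix protein that binds collagens and integrins. Acan was at 2681, 2506 and 2939 CPM in the TBHP libraries and at 3476, 2864 and 4355 CPM in the TBHP+FGF21 libraries. As for Adamts1 and Adamts7, F1 and F3 were above the TBHP range and F2 was within it. Fitted over all 6 libraries, the log2 fold change of Acan was 0.40 (standard error 0.14, edgeR adjusted p = 0.553), and without F2 it rose by 0.54 (edgeR adjusted p = 0.0126). Tgfbi had a log2 fold change of 0.36 (edgeR adjusted p = 0.553) and of 0.53 without F2 (edgeR adjusted p = 0.0145). The values were 0.31 for Vcan, the versican gene, -0.19 for Col1a1, -0.19 for the fibrillin gene Fbn1 and 0.02 for the fibronectin gene Fn1, with adjusted p between 0.553 and 0.960 by edgeR.

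The summed level of the 16 nucleus pulposus markers, 11 of them with a read and most of it from Acan, was 2769 to 3219 CPM in the TBHP libraries and 3880, 3142 and 4794 CPM in F1, F2 and F3. Of its 7 tested genes, 3 were fitted higher and 4 lower, with a median log2 fold change of -0.01. At an unadjusted p under 0.05, 3 were higher, against 4.63% of all genes, and 0 were lower, against 4.29%. Those 3 were Acan, Pax1 (0.54) and Sox9 (0.56). The defining markers Krt8 and Cd24 had values of the opposite sign, -0.43 and -0.55, with unadjusted p of 0.0516 and 0.159 by edgeR, and Krt8 was below the TBHP range in all 3 TBHP+FGF21 libraries. Without F2, 3 of these 7 genes were again fitted higher and 4 lower. In that fit 3 passed the adjusted p, against 7.5% of all genes. They were Acan, Pax1 (0.75, edgeR adjusted p = 0.000268) and Sox9 (0.75, edgeR adjusted p = 0.0216). The summed level of the 10 annulus fibrosus and fibroblast markers, 9 of them with a read and most of it from Col1a1, was 44516 to 49325 CPM in the TBHP libraries and 42829, 46685 and 33443 CPM in the TBHP+FGF21 libraries. Of its 9 tested genes, 4 were fitted higher and 5 lower, with a median log2 fold change of -0.00081. At an unadjusted p under 0.05, 1 was higher, against 4.63% of all genes, and 2 were lower, against 4.29%. The higher gene was Pdgfra, a growth factor receptor, with a log2 fold change of 0.39. The lower genes were Scx, a tendon and annulus transcription factor, at -0.39, and Tagln, a contractile protein, at -0.47. Mkx, another tendon and annulus transcription factor, was at 0.22 (edgeR adjusted p = 0.555). Without F2, 3 of these 9 genes passed the adjusted p, against the same 7.5%. They were Pdgfra, higher by 0.58 (edgeR adjusted p = 0.00219), Scx at -0.60 (edgeR adjusted p = 0.00546) and Tagln at -0.79 (edgeR adjusted p = 0.00102). The sum of the 9 macrophage markers was 32.2 to 37.9 CPM in the TBHP libraries and 26.8 to 33.0 CPM in the TBHP+FGF21 libraries, nearly all from Cd14 at 25.0 to 35.6 CPM, and that of the 8 endothelial markers was at most 2.11 CPM. The part of these shifts in the values of the ADAMTS genes was not tested.

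Among the 5 tested genes whose library values were closest to those of Adamts4, the gene of the 10 with the smallest p, were Map7d2, Slc2a10, Kin and Trim2. The measure was the root mean square difference of log2 CPM after the mean of each gene was subtracted, over the 6 libraries, and it was 0.073, 0.083, 0.084 and 0.092 for these genes. As Adamts4 was chosen by its p for this comparison, the likeness is a description.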

How the data were processed

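RNA-seq was analysed for 6 libraries of rat NPCs, grouped by their titles and by the treatment protocol. The authors deposited a combined table of raw counts per gene symbol and, for each library, raw counts per Ensembl gene, unstranded and by strand, as STAR writes them. Per the labels, STAR and featureCounts were used. Their versions, the genome build and the annotation are not given in the sources used here. In the deposited combined table, 22 rows hold values that are not whole, so its unit was taken to be estimated counts, and these were rounded up. Members were linked to Ensembl identifiers by identical counts in all 6 libraries, with 10 of 10 linked and 13204 rows in all. Unmapped (1.24% to 1.40%), multimapping (6.27% to 7.02%), unassigned to a feature (9.13% to 10.4%) and ambiguous (1.72% to 2.09%) reads stayed out of the library sizes. The strand columns had a ratio of 0.977 to 0.986 in total, although the kit is described as directional, so unstranded counts were used.

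The comparison used edgeR 4.0.16 in R 4.3.3, with TMM scaling, the group as the only term and the quasi-likelihood test. Genes were kept by filterByExpr at a minimum count of 10 and a minimum total of 15, which left 11426 genes for the Benjamini-Hochberg adjustment. To obtain a standard error, each log2 fold change was divided by the root of its F statistic. Fits were tested on simulated data. The 10 genes and the lists were chosen with earlier results of these data known. Named genes were the 10, all other family members with a read, and, among regulators and substrates, those at an unadjusted p under 0.05 plus Timp3, Furin, Pcsk6, Lrp1, Sdc4, Acan, Vcan, Comp, Col1a1, Fbn1 and Fn1, together with defining cell type markers and the 5 nearest patterns, of which 1 is not reported here. Alternatives were the per-sample counts, size factors from DESeq2 1.42.0 within edgeR, its own Wald test, limma-voom and limma on log2(normalized count + 1) with limma 3.58.1, other filters, the replicate number as a block and leaving out each library. No libraries were repeats of each other, since the chi-square per gene of a pair lay between 6.94 and 58.4. Promoter windows and gene neighbours came from RefSeq's GRCr8 and not from the authors' annotation.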

Additional observations from a re-analysis of the deposited data

How the results depend on the processing

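Of the 10 genes, 0 had an adjusted p under 0.05 in all alternatives except the fit without F2, so that the number ranged from 0 to 2 when each library was left out. The number with an unadjusted p under 0.05 was 2, where 1019 of the 11426 genes tested (8.92%) had one. It was 1 with strand column 4 (Adamts12) and with limma on log2(normalized count + 1) (Adamts4). It was 2 with strand column 3, but Adamts7 and Adamts12. Adamts4 thus lost its call in both strand columns, which held only 53.8% and 49.9% of its unstranded reads. The number was 3, with Adamts7 added, with no filter on low counts and with the DESeq2 Wald test. In those settings 1438 of 14882 and 912 of 11426 genes tested had an unadjusted p under 0.05. Leaving out each library gave 0 to 4, with 0 when T3 or F1 was left out, 1 when F3 was (Adamts4) and 4 when F2 was. The number over all genes tested moved too. It was 1771 without T3, 479 without F1, 341 without F3, 2732 without F2, 510 without T1 and 337 without T2. Over all genes tested, 1 passed the adjusted p, namely Sirt1. The number was 0 with the unstranded per-sample counts, strand column 3, strand column 4, limma-voom and limma on log2(normalized count + 1), where 1082, 956, 1049, 996 and 664 genes had an unadjusted p under 0.05. It was 5 with no filter on low counts and 4 with the DESeq2 Wald test, and it ranged from 0 to 867 when each library was left out, the highest without F2. With the replicate block it was 2. In that fit 3 of the 10 genes had an unadjusted p under 0.05, as did 1599 of the 11426 genes tested. Same-numbered libraries had correlations of their deviations of -0.12, 0.21 and 0.15, and differently numbered ones had values from -0.26 to 0.18. With 3 libraries per group, these values cannot decide whether the numbers are pairs. The main fit used no pairing.

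The sign of Htra1 reversed with no filter (0.00099), with limma on log2(normalized count + 1) (0.00082) and when T1 (0.019), F1 (0.017) or F2 (0.0059) was left out, in a range of -0.032 to 0.019. That of Adamts2 reversed with strand column 3 (0.023). Leaving out F3 reversed Adamts15 (0.013, in a range of -0.12 to 0.013) and Adamts10 (0.0047), and leaving out T3 reversed Adamts10 (0.0027, in a range of -0.10 to 0.0047). Adamts9 reversed when T1 (-0.12) or F1 (-0.07) was left out, in a range of -0.12 to 0.79. The causes were not tested. Adamts1, Adamts4, Adamts5, Adamts7 and Adamts12 kept their sign in all alternatives run. Adamts9 was dropped by the filter in both strand columns and by the filter of 1 CPM in 3 libraries, and so has no value there.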
